A study of Mus musculus with 18 samples.

Results

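Transcripts with a dip in the testis at E15.5 were followed through 6 stages of mouse development on 200 array probes. The level of these probes was similar at E12.5 and at P7 and was lower in between. They were chosen from the data: of 34232 probes whose identifiers start with ASMM9PARTA, the median of the 3 arrays was taken at each stage, and the dip score was the lower of the E12.5 and P7 medians minus the E15.5 median. A score of at least 1, E12.5 and P7 medians within 1 of each other and a lower median of at least 9 were required, all in log2 signal. These conditions held for 455 probes, and the 200 with the highest scores form the set, out of 37820 probes in the whole table.

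Each of the 18 arrays held RNA of whole mouse testis, with no treatment or genetic change named in the labels. There were 3 arrays at each of the embryonic stages E12.5 and E15.5 (days of gestation), the postnatal stages P7, P14 and P21 (days after birth) and the adult. No source used here gives the strain, the exact adult age or any pooling of animals, and no label says that the replicates were separate animals, so p-values reflect the spread of these arrays alone, and that spread may be technical. Ribosomal RNA was removed and the rest was labelled with the dye Cy3 by random priming. The series title names long noncoding RNAs of the male germline as its subject, and per the labels mRNAs were measured on the same arrays.

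As background, the fetal testis at E12.5 holds dividing germ cells, called gonocytes or prospermatogonia, inside newly formed cords of Sertoli cells. By E15.5 these germ cells have largely entered a mitotic arrest that lasts until after birth. Division has resumed by P7, spermatocytes in meiosis are present at P14, round spermatids at about P21, and the adult testis holds all stages of spermatogenesis. Sertoli cells, by contrast, go on dividing through fetal life. In whole testis a change in the share of a cell type and a change in RNA per cell cannot be told apart.

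None of the 200 probes matched a gene table used here (0 matched), so they are called by their identifiers. All counts are of probes, and some transcripts may have several. Whether a probe measures an mRNA or a lncRNA, and which cell type it comes from, was therefore not assigned, and the tissue label could not be checked against marker genes.

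The arrays of some stages did not agree well, and the set is touched by this. E12.5 replicate 2 was closer to the E15.5 arrays (mean r = 0.953 over all probes) than to its own stage (mean r = 0.931). E12.5 replicates 1 and 3 correlated at 0.997, and the difference between them had an SD of 0.23. The medians at E12.5 therefore rest mostly on these 2 arrays. P21 replicate 1 also differed from the other P21 arrays, as described below.

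The dip was present in every E15.5 array. The median signal of the 200 probes was 11.12, 9.86 and 11.11 in E12.5 replicates 1 to 3, then 8.39, 8.16 and 8.17 at E15.5, and 11.22, 10.67 and 10.55 at P7. All E15.5 medians lay below all medians of both neighbouring stages, and E12.5 replicate 2 was the nearest to them. These 3 stages chose the probes, so their differences are a description and carry no test. For all 200 probes the P7 values lay above the E15.5 values without overlap, which held for 22.9% of all probes in the table. E12.5 values lay above E15.5 values without overlap for 189 probes, against 16.5% of all probes. The other 11 overlapped through E12.5 replicate 2, and without it all 200 were separate.

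**Figure D1:**
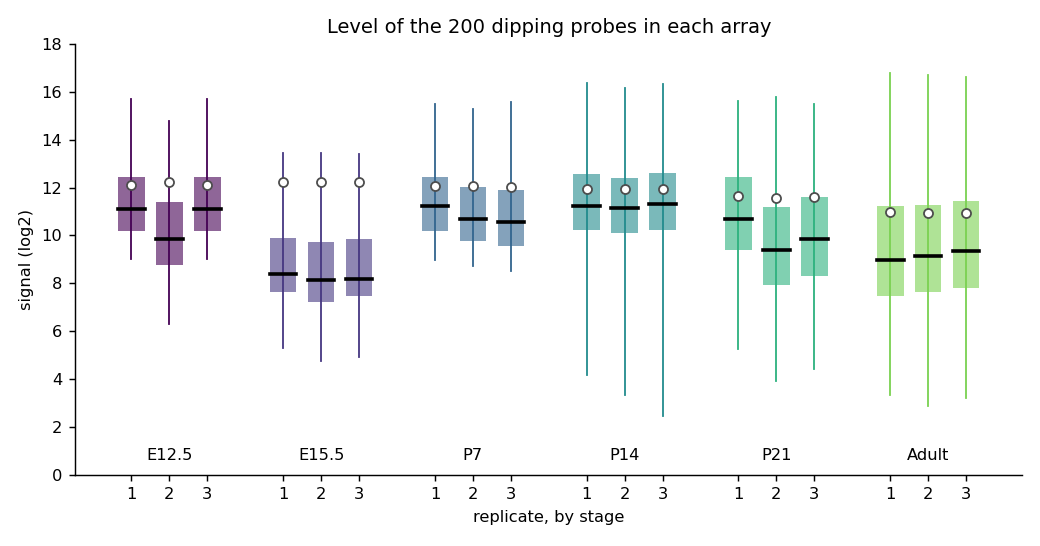
Signal (log2) of the 200 dipping probes in each of the 18 arrays, by stage and replicate number. Bars span the quartiles, black lines mark medians, thin lines reach the lowest and highest probe, and open circles mark the median of the 7737 other probes that met the level conditions. The median of the dipping probes was between 8.16 and 8.39 in the E15.5 arrays and between 11.15 and 11.29 in the P14 arrays.

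Scores ran from 1.62 to 5.91 with a median of 2.08, which corresponds to dips of 3.07-fold to 60.1-fold with a median of 4.22-fold. A score of at least 2 was reached by 114 probes, of at least 3 by 32 and of at least 4 by 8. The largest dip was that of ASMM9PARTA043968, which stood at 11.84, 10.04 and 11.80 in the E12.5 arrays, fell to 5.29, 4.74 and 5.14 at E15.5 and was back at 11.05, 11.12 and 10.86 by P7. ASMM9PARTA034701 was brighter, at 14.08, 12.72 and 14.09, then 7.97, 7.52 and 7.68, then 14.13, 13.58 and 13.52 in the same arrays. ASMM9PARTA032140 had E12.5 values of 12.45, 9.51 and 12.49, E15.5 values of 7.17, 6.51 and 6.78, and P7 values of 12.27, 11.83 and 11.53. In each of these 3 probes E12.5 replicate 2 was the lowest of its stage and still lay above every E15.5 array.

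Most of the probes did not reach the dim end of the table at E15.5. The E15.5 median stayed above 6.53, the limit of the dimmest 25% of all probes by mean signal, for all but 14 of the 200, and the probe with the largest dip was below it. ASMM9PARTA032076 kept the highest E15.5 level, at 13.44, 13.46 and 13.41, against 15.70, 14.17 and 15.70 at E12.5 and 15.48, 14.83 and 15.58 at P7. ASMM9PARTA038291 followed, at 13.07, 13.24 and 13.08 at E15.5, against 15.53, 13.67 and 15.57 at E12.5. For both probes the dip was thus a reduction of a bright signal and not a loss of it.

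The limit of 200 fell among probes that hardly differed in score. The last inside were ASMM9PARTA036890 and ASMM9PARTA039779, each with a score of 1.62, and the first outside were ASMM9PARTA025523 (1.62) and ASMM9PARTA010830 (1.61). At the limit of 9 for the lower of E12.5 and P7, ASMM9PARTA041445 stood just inside at 9.01 and ASMM9PARTA041358 just outside at 8.99. For the gap between E12.5 and P7, ASMM9PARTA030964 was inside at 0.99 and ASMM9PARTA035742 outside at 1.01.

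Which probes are in the set depended most on E12.5 replicates 1 and 3. Without E12.5 replicate 1, 610 probes met the rule and its 200 highest scores held 73 of the set, although 166 of the set still met the rule at some rank. Without E12.5 replicate 3 the rule was met by 610 probes, and the numbers of the set were 75 and 167. With either of these left out, the E12.5 median became the mean of replicate 2 and the remaining array. Without E12.5 replicate 2 the count was 439, and 190 of the set were among the 200 highest. With P7 replicates 1, 2 and 3 left out in turn, the 200 highest held 166, 157 and 135 of the set. The order of the scores was therefore less stable than the presence of a dip.

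At P14 the probes were high again. Their median signal was 11.23, 11.15 and 11.29 in the 3 P14 arrays, close to replicates 1 and 3 of E12.5. P14 did not enter the rule, but E15.5 and P7 did, so the following differences are also given with no test. The P14 values lay above all E15.5 values for 198 probes, against 31.8% of all probes, a gap that the choice of probes low at E15.5 favours. The difference between the P14 and P7 medians had a median of 0.26 (quartiles −0.13 and 0.83) and was under 1 in either direction for 159 probes. For 36 probes P14 exceeded P7 by at least 1.

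At 5 probes P14 was at least 1 below P7. ASMM9PARTA032786, ASMM9PARTA026894 and ASMM9PARTA037069 kept part of the postnatal gain, with P14 values of 7.58 to 7.63, 8.25 to 8.96 and 7.93 to 8.18. ASMM9PARTA041759 returned to its fetal low, at 6.74, 6.67 and 6.84 at E15.5 and 6.55, 6.30 and 6.41 at P14. ASMM9PARTA021462 fell far below it, from 7.83, 6.96 and 7.42 at E15.5 and 8.96, 9.22 and 9.05 at P7 to 4.18, 3.32 and 2.45 at P14. The P14 values of this probe are near 2.38, the lowest value in the table. These 5 probes were singled out after their values were seen.

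After P14 most of the probes declined. The comparisons of P14, P21 and adult use no stage of the rule and were tested with limma over all 37820 probes. Calls needed an adjusted p (Benjamini-Hochberg) below 0.05 together with a change of at least 1 in log2 signal. From P14 to adult 160 of the 200 probes changed, against 48.7% of all probes in the table. Of the 200, 146 (73.0%) fell and 14 (7%) rose, against 32.0% and 16.8% of all probes. The remaining 40 were not called. The median change was −2.12 (quartiles −3.12 and −0.90), against −0.34 over all probes. All adult values lay below all P14 values for 162 probes and above them for 25, against 44.2% and 26.8% of all probes.

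Probes that met the same level conditions declined more often than all probes, and that bears on the comparison. Of the 7737 other probes with E12.5 and P7 medians within 1 of each other and at least 9, 55.2% were called lower in the adult than at P14 and 8.57% higher, with a median change of −1.21. The dipping probes were called lower more often than these, and the difference between the sets was not tested, since probes are not independent of each other. No filter was applied before the test, and all 200 probes were tested, but the rule itself requires a level of at least 9 at E12.5 and P7.

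**Figure D2:**
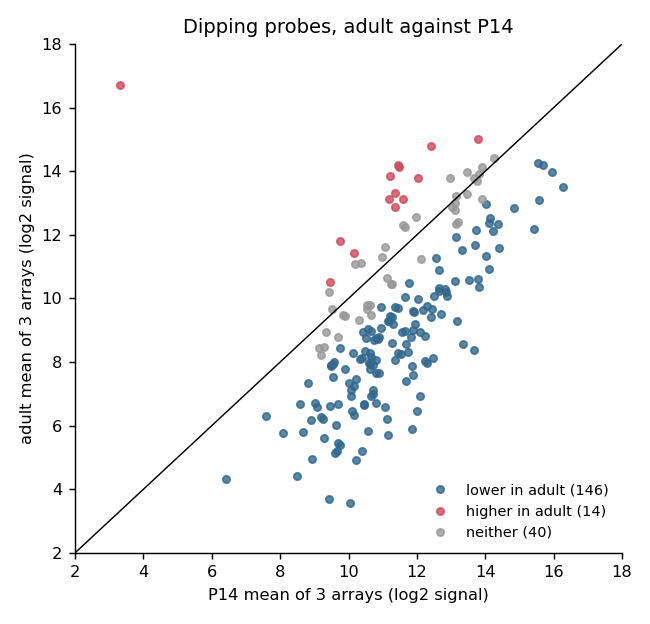
Adult against P14 level of each dipping probe, as means of 3 arrays in log2 signal; the line marks equal levels, and colours give the calls of limma. Below the line lie 146 probes that fell, and the 14 that rose lie above it, with ASMM9PARTA021462 alone at the upper left.

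Of the 200 probes, 111 fell at least 4-fold and 54 at least 8-fold, against 17.2% and 7.25% of all probes and 30.8% and 12.9% of the 7737 others. Among these 146 probes the median level went from 11.22 at E12.5 to 8.19 at E15.5, back to 10.70 at P7 and 11.12 at P14, and then to 9.49 at P21 and 8.34 in the adult. Single probes went both ways from the E15.5 level. Of the 146, the adult median was within 1 of the E15.5 median for 78, at least 1 lower for 37 and at least 1 higher for 31. Of the 200 probes, 75 had an adult median below the E15.5 median, and all 75 were among the 146. In 79 of the 200 the adult median was within 1 of the E15.5 median, in 37 it was at least 1 lower and in 84 at least 1 higher. The lowest of the 6 stage medians was at E15.5 for 121 probes and in the adult for 73.

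The steepest fall was that of ASMM9PARTA030662. Its values were 10.19, 9.97 and 9.95 at P14, 8.79, 5.79 and 6.34 at P21, and 4.63, 2.87 and 3.22 in the adult. The groups did not overlap, and P21 replicate 1 was the highest of its stage. From P14 to adult it fell by 6.47 in the deposited values (SE 0.62, adjusted p = 2.75e-07, limma). It showed only a moderate dip before birth, from 9.25, 8.08 and 9.18 at E12.5 to 7.59, 6.94 and 7.16 at E15.5.

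ASMM9PARTA011151 stood at 11.91, 11.68 and 11.96 at P14, 10.52, 7.57 and 8.56 at P21, and 5.33, 6.02 and 6.28 in the adult. It fell by 5.97 from P14 to adult (SE 0.53, adjusted p = 1.07e-07, limma). Its E15.5 values of 10.21, 10.23 and 10.25 were far above its adult values, so the later decline went deeper than the fetal dip. ASMM9PARTA041445 stood at 9.42, 9.39 and 9.52 at P14 and 3.34, 4.05 and 3.66 in the adult, a fall of 5.76 (SE 0.58, adjusted p = 4.16e-07, limma). The sizes of all 3 of these falls are uncertain, because their adult values were under 6.53 and were not shown to be above background. The adult median lay under 6.53 for 26 of the 200 probes.

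The 3 probes with the highest scores also fell. ASMM9PARTA043968 stood at 10.58, 10.64 and 10.90 at P14 and 7.64, 7.64 and 8.45 in the adult, a change of −2.80 (SE 0.62, adjusted p = 0.00106, limma). Its adult values remained above its E15.5 values. ASMM9PARTA034701 fell by 2.70 (SE 0.36, adjusted p = 8.04e-06) from 13.99, 13.98 and 14.12 to 11.13, 11.30 and 11.57. ASMM9PARTA032140 fell by 4.33 (SE 0.69, adjusted p = 5.75e-05) from 12.34, 12.09 and 12.47 to 7.91, 7.59 and 8.44. In the adult all 3 probes were above their own E15.5 levels.

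**Figure D3:**
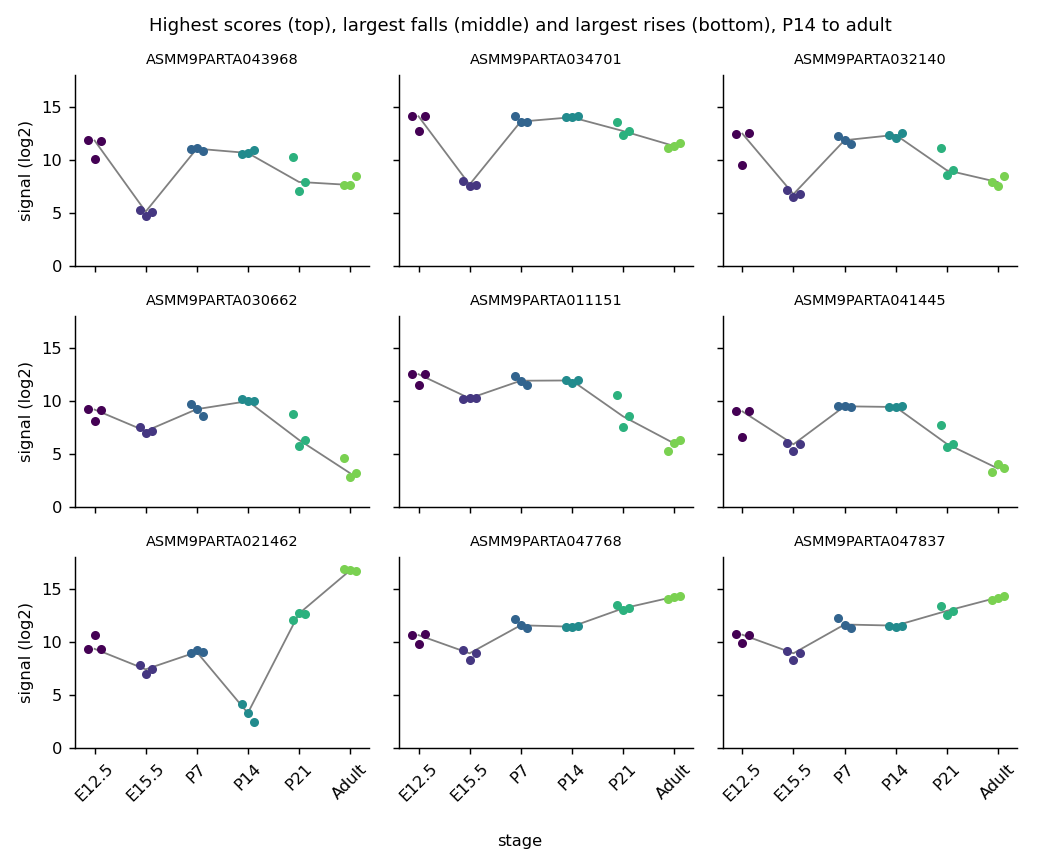
Signal (log2) by stage of 9 dipping probes, with a point for each array and a line through the stage medians. The top row shows the highest scores, the middle row the largest falls from P14 to adult (by 6.47, 5.97 and 5.76) and the bottom row the largest rises (13.40, 2.75 and 2.65); E12.5 replicate 2 is the middle point of the first stage.

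The decline was spread over both intervals after P14. From P14 to P21, 116 probes changed, against 23.5% of all probes. Of these, 111 (55.5%) were lower and 5 higher at P21, against 14.3% and 9.2% of all probes, with a median change of −1.31 (−0.11 over all probes). Values did not overlap for 149 probes that were lower and 8 that were higher at P21, against 29.4% and 16.8% of all probes. In the last interval, between P21 and adult, 105 changed, against 30.9% of all probes. Here 87 (43.5%) were lower and 18 (9%) higher in the adult, against 20.9% and 10% of all probes, with a median change of −0.98 (−0.33 over all probes). Without P21 replicate 1 the median change was −0.63 (−0.36 over all probes). With only the 6 arrays compared in the fit 60 probes were called, 46 of them lower. The shares of all probes in that fit were 20.1% called and 12.6% lower. Values did not overlap for 102 probes lower and 23 higher in the adult, against 29.0% and 13.8%. Among the 7737 other probes that met the level conditions, 25.4% were called lower in the first of these intervals and 40.5% in the second. In the second interval the dipping probes, at 43.5%, were thus near these others, whose median change was −0.82. Without P21 replicate 1, 68.5% of the dipping probes were called lower in the first interval and 30% in the second. The shares of all probes were then 16.8% and 20.3%. Without P21 replicate 2 the order of the intervals turned, with 38.5% of the dipping probes called lower in the first and 53.5% in the second. The shares of all probes were then 12.2% and 21.9%. A total of 64 probes were called lower in both intervals, against 8.04% of all probes and 17.9% of the 7737 others.

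ASMM9PARTA030940 had one of the largest falls from P14 to P21. It went from 12.06, 11.87 and 12.09 to 10.30, 7.90 and 8.70, a change of −3.04 (SE 0.46, adjusted p = 0.000134, limma), and on to 6.24, 6.43 and 6.75 in the adult. ASMM9PARTA043808 fell mainly in the last interval. Its values were 11.90, 11.96 and 11.78 at P14, 10.23, 11.06 and 10.67 at P21, and 7.13, 7.95 and 7.73 in the adult, with a change of −3.05 from P21 to adult (SE 0.33, adjusted p = 3.03e-06, limma).

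Which interval held the larger step depended on single P21 arrays. With all arrays the larger fall came from P14 to P21 for 89 of the 146 probes and from P21 to adult for 57. Without P21 replicate 1 the numbers were 122 and 24, without P21 replicate 2 they were 41 and 105, and without P21 replicate 3 they were 70 and 76. The total fall from P14 to adult does not use these arrays.

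A small group rose instead. The 14 probes with a called rise from P14 to adult had a median level of 8.02 at E15.5, 11.40 at P14, 12.15 at P21 and 13.55 once adult. ASMM9PARTA021462 rose from 4.18, 3.32 and 2.45 at P14 to 12.08, 12.74 and 12.65 at P21 and 16.81, 16.70 and 16.63 in the adult, the highest adult level of the set. The rise from P14 to adult was 13.40 in the deposited values (SE 0.40, adjusted p = 3.62e-13, limma). Its size is uncertain, because the P14 values lie near the lowest in the table and were not shown to be above background. Of the 200 probes ASMM9PARTA021462 alone had its lowest median at P14. ASMM9PARTA041759 was the only other probe with a P14 median below its E15.5 median.

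ASMM9PARTA047768 stood at 11.39, 11.42 and 11.53 at P14, 13.44, 12.95 and 13.13 at P21, and 14.03, 14.22 and 14.33 in the adult. It rose by 2.75 from P14 to adult (SE 0.29, adjusted p = 8.35e-07, limma). ASMM9PARTA047837 rose by 2.65 (SE 0.29, adjusted p = 1.22e-06, limma) and followed nearly the same course. These probes differed by at most 0.41 in any of the 18 arrays (r = 0.998), and no other pair among the 200 stayed within 0.5 of each other in all arrays. They may measure related sequence, which was not tested, and should be counted with care as separate transcripts.

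From P14 to P21 the 5 probes that rose were these 3 together with ASMM9PARTA039775, from 11.41, 11.23 and 11.47 to 12.73, 12.16 and 12.48, and ASMM9PARTA033127, from 12.03, 11.90 and 12.17 to 13.41, 12.80 and 13.06. The changes of these last probes were 1.09 (SE 0.30, adjusted p = 0.0124, limma) and 1.06 (SE 0.35, adjusted p = 0.0307, limma). Both were also called higher in the adult than at P14. ASMM9PARTA027194 reached the second highest adult level, at 15.04, 14.92 and 15.04 against 13.29, 13.97 and 14.12 at P14. Its rise of 1.21 (SE 0.43, adjusted p = 0.0257, limma) was not called without P14 replicate 1 (0.96), without Adult replicate 1 (1.19) or without Adult replicate 3 (1.19).

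For 7 probes a called fall from P14 to P21 was followed by a called rise from P21 to adult, against 0.833% of all probes. ASMM9PARTA047448 had the largest such return. It stood at 10.13, 10.09 and 10.24 at P14, 8.72, 7.53 and 7.79 at P21, and 11.47, 11.21 and 11.61 in the adult, without overlap between neighbouring stages. It fell by 2.14 (SE 0.32, adjusted p = 0.000111, limma) and then rose by 3.42 (SE 0.32, adjusted p = 6.35e-07). Its E15.5 values of 8.27, 8.01 and 8.04 were within the range of its P21 values. The other members of this group, singled out after their values were seen, were ASMM9PARTA012943, ASMM9PARTA034306, ASMM9PARTA032786, ASMM9PARTA049570, ASMM9PARTA032810 and ASMM9PARTA028627.

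Among the 40 probes not called between P14 and adult, changes ran from −1.18 to 0.91 and the median level was 11.26 at P14, 11.00 at P21 and 11.25 once adult. In this group 11 probes were nevertheless called in one of the separate intervals, and the like share over all probes is not given here. ASMM9PARTA042407 stood at 13.74, 13.76 and 13.77 at P14 and 13.56, 13.93 and 13.62 in the adult, with a change of −0.053 (SE 0.27, adjusted p = 0.882, limma). At E15.5 it was at 11.46, 11.19 and 11.23, below all arrays of every other stage. Its course was not level elsewhere, with 12.97, 13.51 and 12.91 at E12.5 and 13.49, 14.74 and 14.64 at P21. ASMM9PARTA041106 was at 13.18, 13.05 and 13.23 at P14 and 12.75, 13.46 and 13.45 in the adult, after 10.40, 10.29 and 10.38 at E15.5. Its P21 values of 14.48, 12.14 and 13.15 spread more widely than those of any other stage.

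The dipping probes also varied more between arrays of the same stage than the other probes that met the level conditions. The median SD of 3 arrays was 0.76 at E12.5 and 0.70 at P21 for the 200 probes, against 0.26 and 0.41 for the 7737 other probes that met the level conditions. At P14 it was 0.11 against 0.09 and at E15.5 0.19 against 0.12. It was 0.31 against 0.12 at P7 and 0.25 against 0.17 in the adult. The spread of the dipping probes was largest at E12.5 and P21, where 1 array stood apart, and these stages also had the largest spread over all probes. E12.5, E15.5 and P7 chose the probes, so the spreads there are a description. E12.5 replicate 2 lay towards E15.5, so the choice of probes low at E15.5 favours a wide spread at E12.5.

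At E12.5 the dipping probes were low in replicate 2. It was the lowest of the 3 arrays for 192 of the 200 probes (96.0%), against 38.8% of the 7737 others, and lay below the mean of replicates 1 and 3 by a median of 1.26. For a median probe it stood 0.53 of the way up from the E15.5 median to that mean (quartiles 0.33 and 0.66), and for 90 probes it was nearer to the E15.5 median. A dip of at least 1 was still seen from this array alone for 137 probes. The 296 probes that met the mirrored rule, with a peak at E15.5, had E12.5 replicate 2 as the highest array in 95.6% of cases, by a median of 1.00. This array lay between the E15.5 median and the mean of E12.5 replicates 1 and 3 for 187 of the 200 dipping probes and for 258 of the 296 peaking probes. These sets were chosen with E12.5 values, so the shares are a description.

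P21 entered no part of the rule, and there replicate 1 was the highest of the 3 arrays for 170 of the 200 probes (85%), against 46.3% of the 7737 others. The median difference from the mean of the other arrays was 1.10 for the dipping probes, −0.011 for the others and −0.51 for the probes peaking at E15.5. P7 replicate 1 was the highest for 166 dipping probes, by a median of 0.43, against 34.6% of the 7737 others, at a stage that the rule used. In the adult, replicate 1 was the lowest for 119, with a median difference of −0.22, against 31.6% of the others. The part of sample age, tissue make-up and RNA handling in these differences between arrays was not tested.

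**Figure D4:**
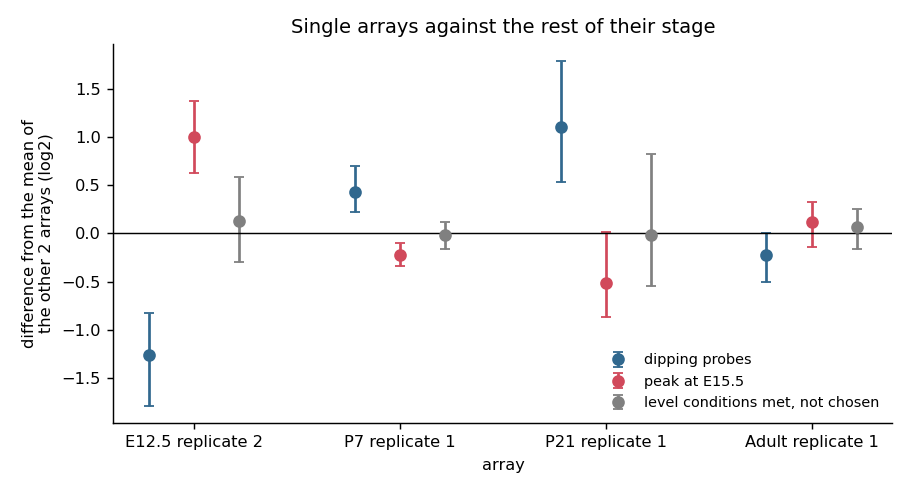
Difference of 1 array from the mean of the other 2 of its stage, in log2 signal, for 4 arrays; points are medians over probes and bars span the quartiles. Dipping probes were lower in E12.5 replicate 2 (median −1.26) and higher in P21 replicate 1 (1.10), and probes peaking at E15.5 moved the opposite way (1.00 and −0.51).

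Dips were more frequent at E15.5 than at the later middle stages. Of 7937 ASMM9PARTA probes with E12.5 and P7 medians within 1 and at least 9, 455 (5.73%) dipped at E15.5 and 296 (3.73%) peaked there. The same rule applied to neighbouring stages found 126 dips and 73 peaks at P7, 60 dips and 174 peaks at P14, and 108 dips and 125 peaks at P21. As shares of the probes that met the level conditions, dips made up 1.75% at P7, 1.04% at P14 and 2.61% at P21. Without E12.5 replicate 2 there were 439 dips and 295 peaks at E15.5. Intervals between stages differ in length, and these counts carry no test.

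**Figure D5:**
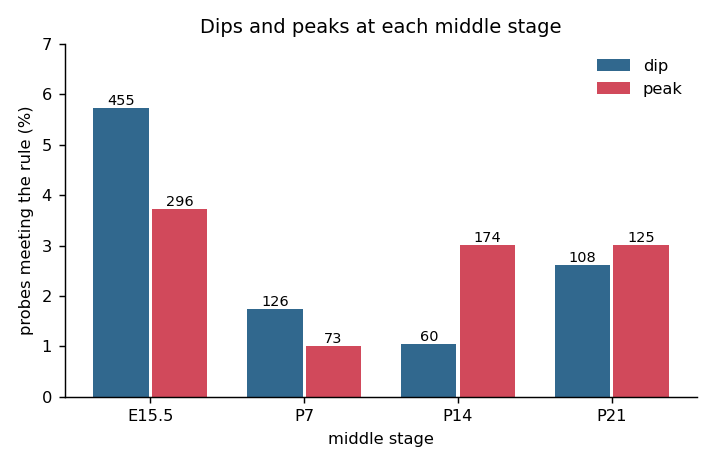
Share of ASMM9PARTA probes that dipped or peaked at each middle stage, in percent of the probes whose neighbouring stages were within 1 of each other and at least 9; numbers above the bars are counts of probes. The share of dips was highest at E15.5 (5.73%, 455 probes) and lowest at P14 (1.04%, 60 probes).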

How the data were processed

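Per the submitters' processing notes images were quantified in Agilent Feature Extraction (version 11.0.1.1). The authors deposited 1 value per probe and array, taken here to be log2 signal from their range of 2.38 to 18.34. No source used here gives their normalization, filters or log base. Array medians ran from 7.79 to 8.00, and values were used as deposited. The number of arrays limits the precision.

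The probes were selected by the rule given in the report. All 18 arrays and 37820 probes entered 1 linear model of stage means in limma 3.58.1 in R 4.3.3 (lmFit, contrasts.fit, eBayes), for P14, P21 and adult only. Adjusted p-values are over all probes within a comparison, and SE is the moderated standard error. The fit was tested on simulated data with independent noise for each probe. Shifts of many probes within 1 array, as seen at E12.5 and P21, were not simulated. The members, tests and rules were chosen with earlier results of these data known.

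Named probes are the 3 with the highest scores, 2 on each side of the limit of 200, and the extremes of adult and E15.5 medians. The largest non-overlapping called rises and falls are also named (3 each from P14 to adult, 2 each in the shorter intervals). So are the 2 with the smallest change in either direction from P14 to adult. Same-numbered arrays of different stages deviated from their stage means with a mean r of 0.058 (from −0.37 to 0.50 over 45 pairs, 14 of them above 0.1), so replicate numbers were not treated as pairs. Alternatives covered scaling, prior, thresholds, the rule's limits and left-out arrays.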

Additional observations from a re-analysis of the deposited data

How the results depend on the processing

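Of 1059 recomputed values of 39 results, 1039 did not change their direction or call, or, for counts, moved by at most 1.5 times. Many of these could not change in size or direction. The change of a single probe stays the same when arrays of other stages are left out, or when only the prior or a threshold differs. In those settings only the call could change, so the total is no measure of stability. The number of dipping probes called from P14 to adult was 160 in the report, 146 at an adjusted p below 0.01, 157 with arrays centred on their medians, 158 once quantile normalized again, and 152 to 161 with single arrays left out. The shares of all probes in the same order were 48.7%, 43.9%, 47.5%, 46.5%, and 45.7% to 51.8%. From P14 to P21 the number of dipping probes called was 116, and 83 to 141 with single arrays left out, against 23.5%, and 19.9% to 26.8%, of all probes. From P21 to adult it was 105, 81 to 119 with single arrays left out, and 60 with only the 6 arrays compared, 46 of them lower. The shares of all probes were 30.9%, 26.1% to 36.6%, and 20.1%, with 12.6% lower. With only the 6 arrays compared, fewer arrays enter the spread. Without E12.5 replicate 2 and P21 replicate 1 the counts were 161, 147 and 89 in the order of these comparisons, against 49.7%, 28.8% and 31.0% of all probes. With the replicate number as a block the counts were 161, 122 and 107, against 49.2%, 24.0% and 31.9% of all probes. The block changed no call of a named probe. The samples share only a number, and the pairing is not known. At an adjusted p below 0.01, 3 probes rose from P14 to P21, against 7.89% of all probes, and the rise of ASMM9PARTA027194 (1.21) was not called.

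The 2 probes with the change from P14 to adult nearest to 0 changed sign. ASMM9PARTA042407 gave 0.14 with arrays centred on their medians and −0.17 to 0.021 with single arrays left out, and ASMM9PARTA041106 gave −0.054 to 0.30.

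The number of probes that met the rule was 253 with E12.5 and P7 within 0.5 and 718 with both within 2, as a narrower or wider limit must give, and 375 to 610 with single arrays left out. The 200 highest scores then held 102 and 105 of the reported set, 85 with the mean of 3 arrays in place of the median, and 73 with 1 averaged array in place of E12.5 replicates 1 and 3, an alternative chosen after seeing the data. Over all probes the median change from P14 to adult was −0.34 as deposited, −0.15 with arrays centred on their medians and −0.033 once quantile normalized again. For the dipping probes it was −2.12, −1.93 and −1.97. Signal over background was not available, so falls to low levels are limited in an unknown way.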

Other observations

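Within the 200 probes the size of the dip was only weakly correlated with the change from P14 to adult. The set holds only the highest scores, from 1.62 to 5.91, and such a cut can weaken a correlation. Probes with smaller dips are not covered. The dip score and the change from P14 to adult correlated at r = −0.19 (Spearman rho = −0.15, 200 probes that share the same arrays). The P14 and adult means correlated at r = 0.61 (rho = 0.69). The drop of E12.5 replicate 2 and the excess of P21 replicate 1, each against the other arrays of its stage, correlated at r = −0.34 (rho = −0.32), so that probes low in the first array tended to be high in the second. These are descriptions across probes, which are not independent.

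There were 3 pairs of dipping probes with consecutive identifier numbers. Over the 18 arrays ASMM9PARTA011150 and ASMM9PARTA011151 correlated at r = 0.784, ASMM9PARTA032333 and ASMM9PARTA032334 at r = 0.939, and ASMM9PARTA042585 and ASMM9PARTA042586 at r = 0.663. The pair ASMM9PARTA047768 and ASMM9PARTA047837, which correlated at r = 0.998, has numbers that are not consecutive.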
